A study of Ovis aries with 42 samples.

Results

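The liver of sheep with a disrupted CFTR gene (CFTR-/-, labelled CF) was compared between birth and gestation day 120 (d120), the last fetal stage before birth among the liver samples. CFTR is the chloride and bicarbonate channel whose loss causes cystic fibrosis. The comparison rests on 2 bulk RNA-seq libraries from CF lambs at birth and 2 from CF fetuses at d120, which are 4 of the 42 samples of a series on early gallbladder and liver disease, and 4 of its 24 liver libraries. The 4 libraries carry different donor numbers, so each came from a separate animal as far as the labels say. No treatment is named, the kind of CFTR mutation and the sex of the CF animals are not given in the labels, and the 4 libraries have neighbouring library numbers. WT liver at d120 (2 libraries) and at term (2 libraries, labelled female and male) served as the reference course. The term pair has library names from a separate number range, so for WT the stage and the library series cannot be told apart. The labels call the CF end point birth and the WT end point term, and give no gestation day for either.

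In the fetus the liver is a blood-forming organ: red cell, platelet and granulocyte precursors mature there and leave for the bone marrow before and around birth. At delivery the placental supply of glucose ends, and the newborn liver takes over glucose release, ketone production, urea synthesis, bile formation and drug clearance. Cortisol before birth and oxygen, fasting and the first feeds after it are known drivers of that switch. The bile duct epithelium, the cell type of the liver in which CFTR is mainly found, lines the tree that carries bile to the gallbladder.

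Each library held between 29705597 and 50690171 estimated counts, of which 0.613% to 0.729% lay in a row that names no gene. Levels are given as CPM, gene counts scaled to a common library total, after TMM scaling, a correction of those totals that assumes that most genes do not change. The TMM factors of the birth libraries were 1.48 and 2.04, those of the d120 libraries 1.36 and 1.11, and those of the other 20 liver libraries lay between 0.778 and 1.21. Birth replicate 2 stood apart. Of 7598 genes at 10 CPM or more, 1403 (18.5%) differed over 2-fold between the birth libraries, against 1.06% between the d120 libraries and 3.06% between the WT term libraries. The tissue label was checked against 16 hepatocyte markers, which were all detected, and whose summed level was 182911 and 271080 CPM at d120, 144210 CPM in birth replicate 1 and 37446 CPM in birth replicate 2. Results are therefore given with and without birth replicate 2 where that library changed them.

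Of 16507 genes tested with edgeR's quasi-likelihood test, 1046 (6.34%) were higher at birth and 1385 (8.39%) lower at a Benjamini-Hochberg adjusted p under 0.05, which makes 2431 in all (14.7%). Birth replicate 2, d120 replicate 1 and d120 replicate 2 each moved that total by over 1.5 times: 1562 genes were called without the first, 1213 without the second and 1273 without the last. The spread was estimated over all 24 liver libraries, and a fit of the 4 libraries alone called 54 genes higher and 291 lower. Called in each of the 4 fits that left out 1 library were 690 of the 1385 lower genes (49.8%) and 173 of the 1046 higher genes (16.5%). The median log2 fold change of all tested genes was 0.04. With library totals in place of TMM it was 0.54, and the split became 2860 higher and 768 lower genes. Levels are therefore relative to the bulk of genes, and a list is described by its counts and its median beside that of all genes. List counts are to be read against the 6.34% of all genes called higher and the 8.39% called lower. Genes said below to have risen or fallen also passed in each of the 4 fits that left out 1 library, unless the text says otherwise. That rule does not cover the fit of the 4 libraries alone, where 51 of 161 named genes called in CF kept their call. In that fit 22 of 37 red cell genes and 32 of 41 cell cycle genes were called lower. Adjusted p-values come from edgeR, errors of log2 fold changes are standard errors, and values in pairs are replicate 1 and replicate 2.

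**Figure D1:**
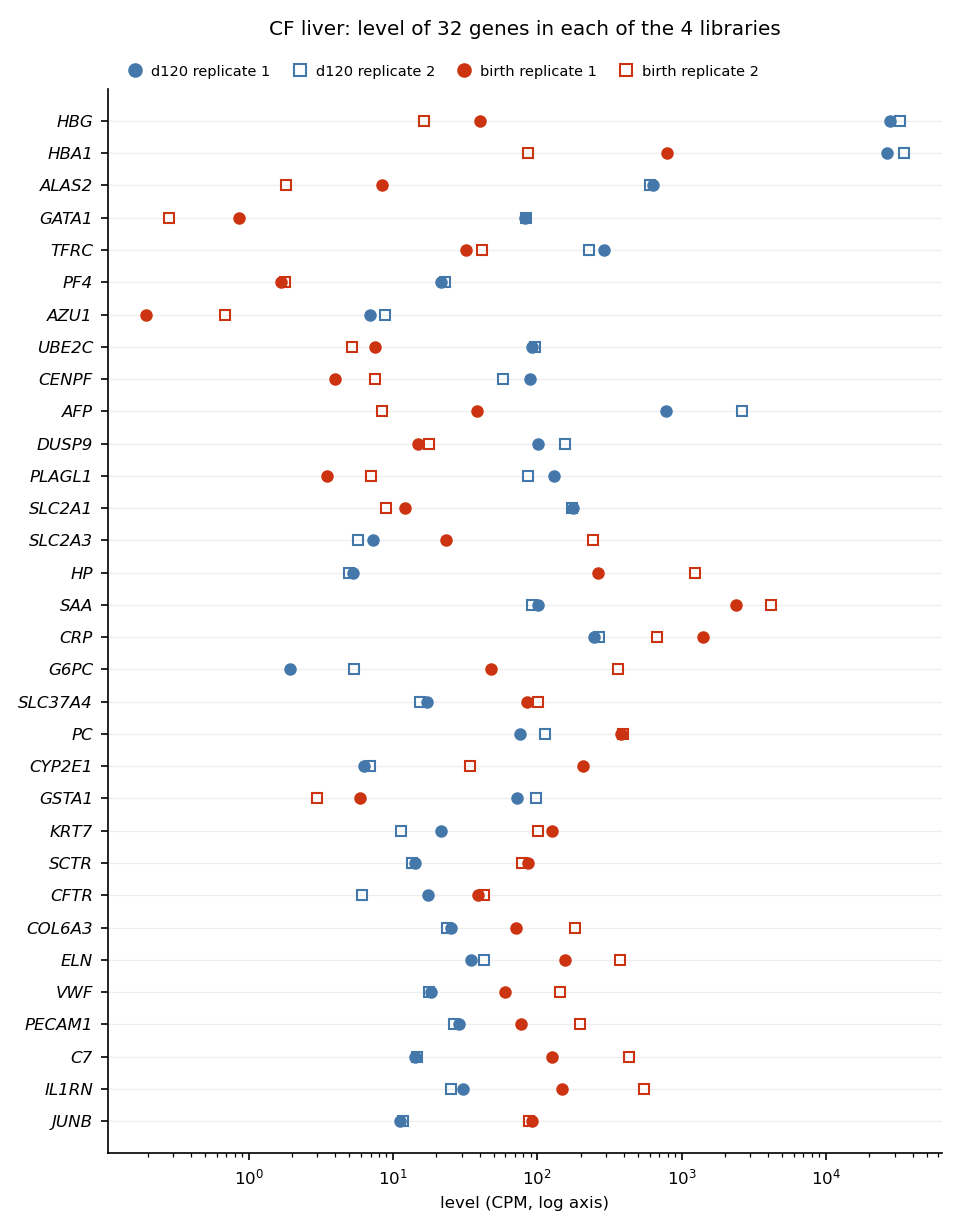
Level of 32 genes (CPM after TMM scaling, log axis) in each of the 4 CF liver libraries, with d120 in blue and birth in red, replicate 1 as filled circles and replicate 2 as open squares. HBG falls from 27726 and 32799 CPM to 39.9 and 16.4 CPM and HP rises from 5.32 and 4.98 CPM to 265 and 1242 CPM. Every gene shown is a called gene. The stages do not overlap for these genes, as for all 1385 genes called lower and 1029 of 1046 called higher, so this adds nothing to the calls.

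The red cell programme of the fetal liver was almost gone at birth. Of 37 tested genes of the red cell line, 35 were lower at birth, and the median log2 fold change was -5.49. Taking the member listed at 0 at its bound gave -5.38. The summed level of the list was 65393 and 80589 CPM at d120 and 2355 and 809 CPM at birth. Between 31 and 35 members were called lower when 1 library was left out. In bulk tissue, fewer cells of a type and less RNA per cell cannot be told apart.

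Globin genes carried most of that RNA. HBG, the fetal beta-type globin, stood at 27726 and 32799 CPM at d120 and at 39.9 and 16.4 CPM at birth (1074-fold lower, log2 fold change -10.07 ± 1.23, adjusted p = 2.2e-05). HBA1, an alpha-globin gene, went from 26533 and 34844 CPM to 790 and 86.2 CPM (70.0-fold lower, log2 fold change -6.13 ± 0.86, adjusted p = 9.43e-05). HBB, the adult beta-type globin, was 12.8-fold lower, from 4870 and 7025 CPM to 760 and 166 CPM (adjusted p = 0.0241). The HBB call was lost without birth replicate 2 and without d120 replicate 2, with adjusted p from 0.0014 to 0.163 over its 10 alternatives. Globin genes are close copies of each other, and how reads were split between them is uncertain. Haemoglobin genes together took 7.99% and 8.27% of all counts at d120 and 0.233% and 0.0545% at birth.

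The regulators of red cell formation fell with their targets. GATA1, the master transcription factor of the lineage, stood at 81.8 and 84.2 CPM at d120 and at 0.86 and 0.283 CPM at birth (143-fold lower, log2 fold change -7.16 ± 0.46, adjusted p = 1.8e-08). KLF1, which drives adult globin genes, went from 93.2 and 104 CPM to 1.1 and 0 CPM. NFE2, GFI1B and TAL1, 3 more factors of the lineage, fell 64.8-fold, 39.6-fold and 15-fold. EPOR, the receptor for erythropoietin, fell from 24.3 and 24.6 CPM to 0.875 and 0.116 CPM. For each of these 6 regulators both birth libraries lay below both d120 libraries, as for all 1385 genes called lower.

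Structural and haem genes of the red cell followed. ALAS2, the first enzyme of haem synthesis in red cells, went from 637 and 608 CPM to 8.42 and 1.81 CPM (121-fold lower, log2 fold change -6.92 ± 0.65, adjusted p = 1.25e-06). AHSP, the chaperone of free alpha-globin, went from 588 and 719 CPM to 6.53 and 0.432 CPM. Genes of the red cell membrane fell by large folds: RHAG was 335-fold lower, EPB42 271-fold, SLC4A1, the anion exchanger band 3, 205-fold, and ERMAP 156-fold. HEMGN, HBM, TRIM10 and TMCC2, all abundant in erythroblasts, were 165-fold, 106-fold, 109-fold and 91.4-fold lower. TFRC, the transferrin receptor that brings iron into dividing cells and erythroblasts, fell less, from 289 and 229 CPM to 32 and 41.4 CPM (7.06-fold, adjusted p = 2.02e-06). XPO7, a nuclear exporter used in red cell nuclear condensation, fell from 399 and 313 CPM to 23.3 and 24.9 CPM. SLC14A1, the urea transporter of red cells, had 801 and 528 counts at d120 and none at birth, which makes it at least 466-fold lower against a floor of 3 counts over the pair. HBQ1, a theta-globin gene, was likewise at least 301-fold lower.

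Platelet and granulocyte genes changed in part. Of 17 tested megakaryocyte and platelet genes, 5 were lower, 2 higher and the median log2 fold change was -0.31, while the summed level of the list was 170 and 163 CPM at d120 and 208 and 657 CPM at birth. PF4, platelet factor 4, went from 21.7 and 23.1 CPM to 1.68 and 1.78 CPM (13-fold lower, log2 fold change -3.70 ± 0.28, adjusted p = 1.01e-07). TUBB1, the tubulin of platelets, fell 8.76-fold and TREML1, a platelet granule receptor, 34.9-fold. The 2 members called higher, named after their values were seen, were GP1BA, a platelet receptor for VWF, and VWF itself, which is also made by endothelium. Without birth replicate 2 the members called lower numbered 8, and without birth replicate 1 those called higher numbered 4. Of 23 granulocyte and mast cell genes, 9 were lower (median log2 -1), a count that was 12 without birth replicate 2, 5 without birth replicate 1 and 4 without d120 replicate 2. AZU1, a neutrophil granule protein, stood at 6.89 and 8.82 CPM at d120 and at 0.193 and 0.682 CPM at birth. MPO, the myeloperoxidase of the same granules, stood at 11.1 and 10.6 CPM and at 0 and 1.65 CPM. ELANE, neutrophil elastase, fell 4.48-fold. The granulocyte factor CEBPE was left with 1 count in the birth pair, from 0.476 and 0.947 CPM at d120 (adjusted p = 0.00225).

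Among 23 genes of blood stem cells and their niche, 6 were lower and 4 higher, and the higher calls were lost without birth replicate 2 or d120 replicate 2, with 1 kept without d120 replicate 1. MYB, needed for fetal liver blood formation, fell from 10.3 and 6.98 CPM to 0.311 and 0.881 CPM (14.5-fold, adjusted p = 8.45e-05). CD34, chosen after its values were seen, a marker of stem cells and endothelium, stood at 39.9 and 33.5 CPM at d120 and at 33.3 and 48.5 CPM at birth, groups that overlapped (adjusted p = 0.809).

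Proliferation genes fell nearly as a block. Of 41 tested cell cycle genes, 37 were lower and 1 higher, with a median log2 fold change of -2.55. The summed level was 2126 and 1804 CPM at d120 and 440 and 326 CPM at birth, and at least 36 members were called lower whichever library was left out. The higher member, CCND2, a cyclin that responds to growth factors, was named after its values were seen, and its call was lost without birth replicate 2 or either d120 library. CCNE1, the cyclin of entry into DNA replication, went from 21.1 and 16.8 CPM to 1.79 and 1.7 CPM (10.8-fold lower, adjusted p = 3.14e-06). UBE2C, which ends mitosis with the anaphase-promoting complex, went from 92.7 and 96.7 CPM to 7.56 and 5.19 CPM (14.8-fold lower, adjusted p = 9.07e-06). The kinetochore proteins CENPE and CENPF fell 13.2-fold and 12.8-fold. MKI67, the marker of cycling cells, named after its values were seen, went from 204 and 108 CPM to 5.98 and 9.76 CPM. In each of these 5 genes the 2 stages did not overlap, as in all 1385 genes called lower. The part of dividing blood precursors in this fall was not tested.

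**Figure D2:**
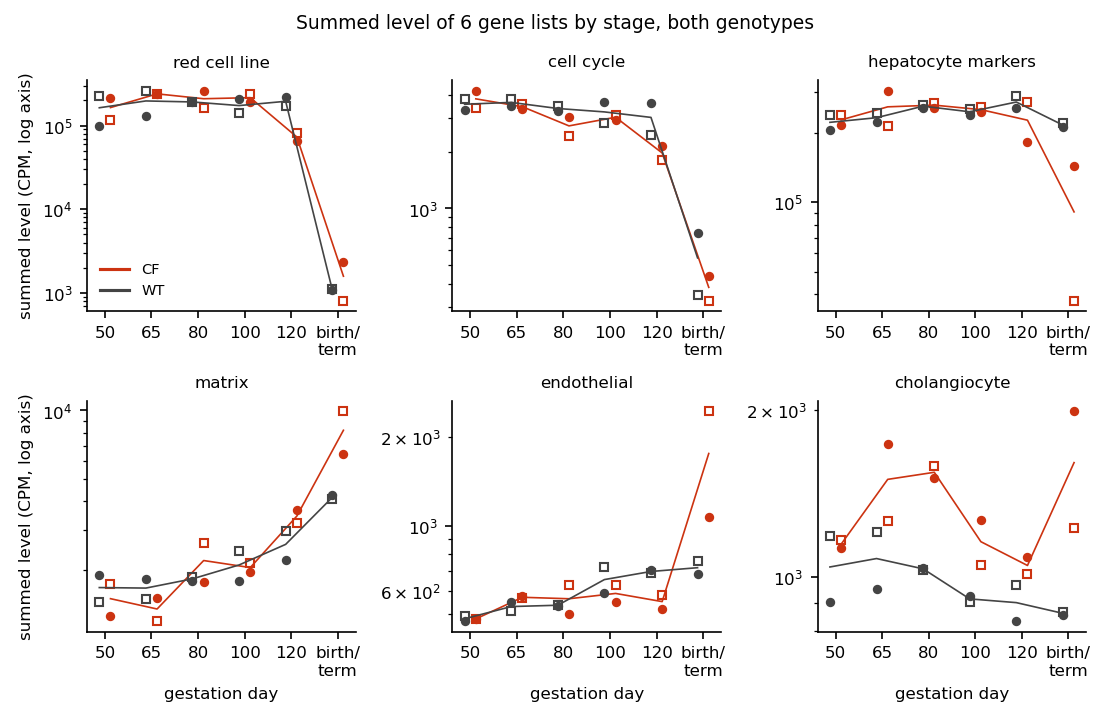
Summed level (CPM, log axis) of 6 gene lists by stage in CF (red) and WT (black) liver, each point a library (replicate 1 filled, replicate 2 open) and each line joining the means. In CF liver the red cell list falls from 65393 and 80589 CPM at d120 to 2355 and 809 CPM at birth, and the matrix list rises from 3657 and 3216 CPM to 6433 and 9938 CPM. The stage axis is not to scale.

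Some genes typical of the fetal hepatocyte fell too. Of 21 oncofetal genes, those of fetal liver that return in liver tumours, 10 were lower and 1 higher (median log2 -1.51). Without birth replicate 2 and without d120 replicate 2 the lower count was 6, and the higher call was lost in both fits and without birth replicate 1. AFP, alpha-fetoprotein, the main albumin-like protein of fetal plasma, stood at 777 and 2615 CPM at d120 and at 38 and 8.45 CPM at birth (73.1-fold lower, log2 fold change -6.19 ± 0.76, adjusted p = 2.27e-05). LIN28B, which keeps let-7 microRNAs low in fetal cells, had 133 and 56 counts at d120 and none at birth, at least 66.3-fold lower. TRIM71, a fellow let-7 pathway gene, fell 7.68-fold. DUSP9, a MAP kinase phosphatase, went from 102 and 155 CPM to 14.9 and 17.7 CPM. FETUB, a plasma protease inhibitor, went from 4005 and 7409 CPM to 774 and 57.4 CPM (13.7-fold lower, adjusted p = 0.00228).

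Imprinted growth genes moved unevenly. Of 15, 3 were lower and 1 higher, with a median log2 of -0.53. PLAGL1, a growth regulator of the imprinted network, went from 131 and 85.7 CPM to 3.49 and 7 CPM (20.7-fold lower, log2 fold change -4.37 ± 0.52, adjusted p = 1.6e-05). MEST, expressed from the paternal allele, fell 5.32-fold. DLK1, also imprinted and named after its values were seen, stood at 325 and 418 CPM at d120 and at 409 and 730 CPM at birth (adjusted p = 0.289). GNAS, the stimulatory G protein, was higher, from 861 and 988 CPM to 1699 and 1611 CPM (adjusted p = 0.0155), a call lost without either d120 library (adjusted p from 1.05e-05 to 0.314 over its 10 alternatives). Of 17 genes of the insulin-like growth factor axis, 4 were higher, a count that was 1 without d120 replicate 1. They were SOCS2, a brake on growth hormone signalling named after its values were seen, whose call was lost without d120 replicate 1, and 3 binding proteins, of which IGFBP7 went from 51.3 and 42.7 CPM to 134 and 227 CPM. GHR, the growth hormone receptor, also named after its values were seen, stood at 55.5 and 62.7 CPM and at 60.6 and 45.8 CPM (adjusted p = 0.819).

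Hepatocyte markers, many of them plasma proteins, had their lowest summed level in birth replicate 2. Of 16 hepatocyte markers, 3 passed and all 3 were lower (median log2 -0.57). Both birth libraries lay below both d120 libraries for 10 of the 16, against 27.2% of all genes. The count of lower members was 13 without birth replicate 1 and 1 without birth replicate 2, where 1 member was called higher, and the 3 calls were lost without d120 replicate 2. ALB, albumin, stood at 59829 and 85317 CPM at d120 and at 28686 and 4303 CPM at birth (4.40-fold lower, adjusted p = 0.02). Its call was lost without d120 replicate 2, with adjusted p from 7.55e-06 to 0.349 over 10 alternatives. TTR, which carries thyroid hormone, was 3.53-fold lower, from 1690 and 3085 CPM to 1110 and 241 CPM (adjusted p = 0.0259). SERPINA1, alpha-1-antitrypsin, was 3.03-fold lower, from 25248 and 48802 CPM to 18637 and 5789 CPM (adjusted p = 0.0328). The TTR and SERPINA1 calls were lost without birth replicate 2 and without d120 replicate 2, with adjusted p from 0.000263 to 0.272 and from 0.000335 to 0.369. ITIH2, a heavy chain of the inter-alpha inhibitor, fell from 2813 and 3519 CPM to 1130 and 378 CPM and kept its call in each of these fits. APOB, the core protein of lipoproteins, did not pass, at 1278 and 1161 CPM and at 828 and 808 CPM (adjusted p = 0.0964).

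**Figure D3:**
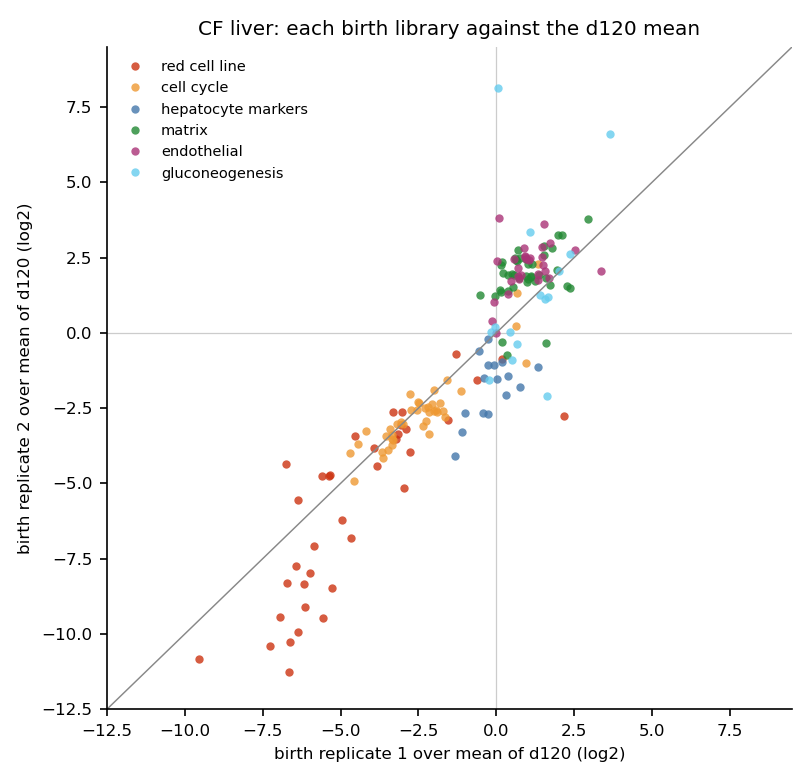
Log2 ratio of each birth library to the mean of the d120 libraries (CPM plus 0.1), replicate 1 on the horizontal and replicate 2 on the vertical axis, for the tested members of 6 gene lists, with the line of equal values in grey. Red cell and cell cycle genes are low in both birth libraries, hepatocyte markers lie mostly below the line, and matrix and endothelial genes lie mostly above it.

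Acute phase proteins, which the liver secretes in response to inflammation and which also rise around birth, gave some of the largest gains. Of 25 tested, 8 were higher and 2 lower (median log2 0.13), with 5 higher without d120 replicate 2 and 7 lower without birth replicate 1. HP, haptoglobin, the scavenger of free haemoglobin, stood at 5.32 and 4.98 CPM at d120 and at 265 and 1242 CPM at birth (146-fold higher, log2 fold change 7.19 ± 0.72, adjusted p = 2.52e-06). SAA, serum amyloid A, went from 102 and 91.6 CPM to 2391 and 4171 CPM (33.8-fold higher, log2 fold change 5.08 ± 0.69, adjusted p = 6.98e-05). Its relative SAA4 rose 8.22-fold. CRP, C-reactive protein, went from 249 and 270 CPM to 1412 and 681 CPM (4.03-fold higher, adjusted p = 0.000524). ORM1, orosomucoid, stood at 15 and 22.2 CPM and at 5601 and 4627 CPM (275-fold higher, adjusted p = 0.00436). The ORM1 groups lay far apart, yet its call was lost without either d120 library (adjusted p from 1.3e-07 to 0.0676 over its 10 alternatives). SAA and ORM1 belong to families of close copies, so the split of reads among members is uncertain. IL1RN, the natural antagonist of interleukin-1, rose from 30.4 and 25.2 CPM to 148 and 549 CPM.

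Of 30 complement genes, 3 were higher and 1 lower (median log2 0.01), with 1 higher without either d120 library, 7 lower without birth replicate 1 and 7 higher with library totals. Over all genes, 6.34% were higher and 8.39% lower. C7, a part of the membrane attack complex, rose 19.2-fold, from 14.3 and 14.7 CPM to 126 and 431 CPM. Of 35 coagulation genes, 5 were higher and 1 lower (median log2 -0.32). Without birth replicate 1, 20 of them were called lower, a count that rests on birth replicate 2. Members that rose were THBD, the thrombomodulin of vessel walls, from 4.77 and 5.57 CPM to 24.2 and 97.3 CPM, and the plasminogen activators PLAT (2.85-fold) and PLAU (3.16-fold).

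Several glucose output genes rose. Of 15 tested genes of gluconeogenesis and glycogen, 8 were higher, against 6.34% of all genes, with a median log2 of 1.33. In the fit of the 4 libraries alone, 1 was called higher. Both birth libraries lay above both d120 libraries for 7 of the 15, against 25.6% of all genes. The median log2 lay between 1.06 and 1.31 when 1 library was left out. The summed level went from 974 and 1191 CPM to 2285 and 2592 CPM. SLC37A4, the carrier of glucose-6-phosphate into the endoplasmic reticulum, stood at 17.2 and 15.4 CPM at d120 and at 84.7 and 101 CPM at birth (5.69-fold higher, log2 fold change 2.51 ± 0.22, adjusted p = 4.36e-07). G6PC, the phosphatase that frees glucose, went from 1.95 and 5.41 CPM to 47.8 and 365 CPM (56.2-fold higher, log2 fold change 5.81 ± 0.98, adjusted p = 0.00053). PC, pyruvate carboxylase, the entry step, went from 76.4 and 114 CPM to 382 and 396 CPM. UGP2, which makes UDP-glucose for glycogen, rose 2.73-fold. The birth libraries were alike for SLC37A4, PC and UGP2 but far apart for G6PC.

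PCK1, the cytosolic enzyme that commits carbon to glucose, was high in a single newborn. It stood at 1.89 and 3.27 CPM at d120, at 2.67 CPM in birth replicate 1 and at 756 CPM in birth replicate 2 (adjusted p = 0.00297). Without birth replicate 2 the adjusted p was 1, and without d120 replicate 1 it was 0.0523, within a range from 2.08e-07 to 1 over its 10 alternatives. PCK2, the mitochondrial form, named after its values were seen, rose in both newborns, from 59.2 and 63 CPM to 181 and 134 CPM (2.57-fold, adjusted p = 0.00196). SDS, serine dehydratase, which feeds amino acid carbon to glucose, followed the pattern of PCK1, at 3.67 and 2.41 CPM and at 6.53 and 71.8 CPM. The SDS call (adjusted p = 0.00343) was lost without birth replicate 2 and without d120 replicate 2 (adjusted p from 2.41e-05 to 0.292 over its 10 alternatives).

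Urea cycle genes rose in part. Of 11 urea cycle genes, 4 were higher, against 6.34% of all genes, and the count was 2 without birth replicate 1, where 3 were called lower, 1 without d120 replicate 1 and 2 without d120 replicate 2. GLS2, liver glutaminase, which supplies ammonia to the cycle, went from 8.16 and 10.9 CPM to 58.2 and 45 CPM (5.4-fold higher, adjusted p = 0.00032). ASL, argininosuccinate lyase, stood at 66.1 and 150 CPM and at 346 and 538 CPM (adjusted p = 0.00376). The ASL call was lost without d120 replicate 1, and its adjusted p ran from 2.06e-05 to 0.118 over 10 alternatives. NAGS and ASS1 were 1.84-fold and 2.31-fold higher, but each lost its call in at least 3 of the 4 fits without 1 library (adjusted p from 0.000187 to 0.158 and from 0.000922 to 0.296). Of 39 amino acid catabolism genes, 4 were higher and 3 lower, with 13 lower without birth replicate 1 and 2 higher and 1 lower without d120 replicate 2. The amino acid list over all libraries lay near the shares of all genes (6.34% higher, 8.39% lower), with a median log2 of -0.24. GNMT, the methyltransferase that disposes of excess methionine, rose from 3.97 and 7.61 CPM to 15.6 and 73.9 CPM.

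Glucose transporters moved in opposite directions. SLC2A1, the basal transporter GLUT1 of fetal cells and of red cells in some species, stood at 178 and 175 CPM at d120 and at 12.1 and 8.96 CPM at birth (16.7-fold lower, log2 fold change -4.07 ± 0.30, adjusted p = 8.67e-08). SLC2A3, the high-affinity transporter GLUT3, went the other way, from 7.33 and 5.7 CPM to 23.2 and 243 CPM (20.4-fold higher, log2 fold change 4.35 ± 0.70, adjusted p = 0.000351). SLC2A4, the insulin-responsive GLUT4, fell 2.84-fold. SLC5A11, an inositol transporter, was left with 3 counts in the birth pair, from 1.43 and 0.339 CPM at d120 (adjusted p = 0.00202). Of 26 genes of glycolysis and the hypoxia response, 7 were higher and 1 lower (median log2 0.93), but only 3 were called higher without birth replicate 2, without d120 replicate 1 or without d120 replicate 2. EGLN3, an oxygen sensor that hypoxia induces, rose from 11 and 7.45 CPM to 39.6 and 74.1 CPM, and ALDOA, the aldolase of glycolysis, from 66.5 and 66.5 CPM to 149 and 251 CPM.

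Of 29 genes of fatty acid oxidation and ketone production, 6 were higher and 1 lower, against 6.34% and 8.39% of all genes, with a median log2 of 0.14. Without birth replicate 1 the split was 4 higher and 6 lower, without either d120 library 4 and 1, and with library totals 10 and 1. ACSL1, which activates fatty acids, rose from 73.7 and 58.1 CPM to 189 and 256 CPM (3.38-fold, log2 fold change 1.76 ± 0.24, adjusted p = 8.28e-05). ACADVL, the dehydrogenase of very long chains, rose from 57.6 and 65.2 CPM to 178 and 135 CPM. BDH1, which interconverts ketone bodies, fell from 3.85 and 3.7 CPM to 0.475 and 0.2 CPM (11-fold, adjusted p = 4.96e-05). PDK4, which spares glucose in fasting, stood at 12.6 and 12.8 CPM and at 30.3 and 105 CPM (adjusted p = 0.00127), a call lost without birth replicate 2 (adjusted p from 1.95e-06 to 0.116 over its 10 alternatives). Of 31 genes of fatty acid synthesis and storage, 1 was higher and 2 lower, a split of 6 and 1 with library totals, of 3 and 7 without birth replicate 1 and of 2 and 1 without birth replicate 2, with neither direction called without d120 replicate 1. PNPLA2, the lipase that opens fat droplets, stood at 14.9 and 21.4 CPM and at 83.9 and 46.7 CPM (adjusted p = 0.00488), a call lost without d120 replicate 1 (adjusted p from 0.00012 to 0.0876 over its 10 alternatives). Of 28 cholesterol genes, 1 was higher and 3 lower. The lower calls were lost with library totals (3 higher), without birth replicate 2 (1 higher) and without d120 replicate 1, where no member passed, and 1 was lower without d120 replicate 2, but without birth replicate 1 the split was 1 and 12.

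Of 16 bile transporters, 4 were lower, against 8.39% of all genes. With library totals 2 were lower and 2 higher, without birth replicate 2 the split was 3 lower and 4 higher, and without d120 replicate 1 there were 2 lower. ABCG2, an efflux pump, fell from 93.9 and 115 CPM to 44.8 and 26.4 CPM (2.94-fold, adjusted p = 0.000207). ABCB11, the bile salt export pump, stood at 213 and 173 CPM and at 126 and 61.2 CPM (adjusted p = 0.0112), a call lost without birth replicate 2 and without d120 replicate 1 (adjusted p from 0.000196 to 0.23 over its 10 alternatives). SLC51A, a subunit of the basolateral bile salt exporter, was left with 1 count at birth, from 0.522 and 0.589 CPM (adjusted p = 0.00185). Of 13 genes in the bile acid synthesis list, 2 were higher (ACOX2 and SLC27A5) and 2 lower. The lower members were FGFR4 and KLB, which are not synthesis enzymes. Without birth replicate 1 the split was 1 and 5, without d120 replicate 2 it was 1 and 1, the lower calls were lost without birth replicate 2 and with library totals, and no member passed without d120 replicate 1. Of 27 phase 1 drug enzymes, 3 were higher and 2 lower (median log2 -0.40, or -0.42 with members listed at 0 in a stage at their bound), and 8 were lower without birth replicate 1 but 1 without birth replicate 2 or d120 replicate 1. The shares of all genes were 6.34% higher and 8.39% lower. CYP2E1, the ethanol-oxidising cytochrome of the newborn liver, went from 6.29 and 6.93 CPM to 208 and 34.2 CPM (18.3-fold higher, adjusted p = 0.000667). POR, the electron donor of all microsomal cytochromes P450, rose 2.18-fold, and ADH4, an alcohol dehydrogenase, fell 3.84-fold.

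Conjugation and antioxidant genes included several that fell. Of 24 phase 2 and bilirubin genes, 3 were higher and 5 lower, but with library totals 11 were higher and 3 lower, and without birth replicate 2 the split was 6 and 2. The higher calls were lost without either d120 library, and 2 were lower without d120 replicate 2. GSTA1, a glutathione transferase, fell from 72.1 and 98.3 CPM to 5.93 and 2.98 CPM (19.1-fold, adjusted p = 7.88e-05). BLVRB, a biliverdin reductase of fetal tissue and red cells, fell from 199 and 262 CPM to 50.6 and 19.3 CPM. Of 23 antioxidant and metal genes, 5 were lower and 2 higher, a split of 3 and 4 with library totals, and 3 were lower without birth replicate 2 or d120 replicate 2. GCLM, the modifier subunit of glutathione synthesis, fell from 87.8 and 72.2 CPM to 21.9 and 20.2 CPM (3.80-fold, log2 fold change -1.93 ± 0.22, adjusted p = 1.06e-05). GPX1, the glutathione peroxidase that is abundant in red cells, fell 5.42-fold and SRXN1, sulfiredoxin, 2.53-fold. SOD3, the extracellular superoxide dismutase, rose 4.85-fold. Of 24 retinoid genes, 1 was higher and 5 lower, with library totals 5 were higher and 2 lower, and without birth replicate 2 or d120 replicate 2 each direction had 1. RDH16, a retinol dehydrogenase, was the higher member, from 35.3 and 39 CPM to 250 and 121 CPM. Of 19 iron genes, 4 were lower and HP was higher, with 8 lower without birth replicate 1 and TFRC as the lower member without birth replicate 2 or either d120 library.

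Genes of bile duct epithelium, the site of CFTR, were in part higher at birth. Of 29 cholangiocyte genes, 9 were higher, with a median log2 of 1.25. Both birth libraries lay above both d120 libraries for 19 of the 29, against 25.6% of all genes. Between 3 and 9 members were called higher when 1 library was left out, with 3 without d120 replicate 2 and 6 without birth replicate 1. The summed level was 1088 and 1012 CPM at d120 and 1988 and 1225 CPM at birth. SCTR, the secretin receptor that starts bicarbonate secretion in ducts, stood at 14.3 and 13.5 CPM and at 86.6 and 78.9 CPM (5.96-fold higher, log2 fold change 2.58 ± 0.36, adjusted p = 0.0001). KRT7, a keratin of duct epithelium, stood at 21.4 and 11.3 CPM and at 126 and 101 CPM (6.93-fold higher, log2 fold change 2.79 ± 0.47, adjusted p = 0.000494). KRT19, also a duct keratin, stood at 25.9 and 13.7 CPM and at 98.1 and 72.3 CPM (adjusted p = 0.0102), a call lost without d120 replicate 2 (adjusted p from 0.000361 to 0.134 over its 10 alternatives). For these 3 genes the stages did not overlap, as for 1029 of the 1046 genes called higher. The part of the hepatocyte marker level of the birth libraries in the duct result was not tested.

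The disrupted gene itself was still read. CFTR stood at 17.4 and 6.09 CPM at d120 and at 38.7 and 42.5 CPM at birth (3.46-fold higher, log2 fold change 1.79 ± 0.53, adjusted p = 0.0279). Both birth libraries lay above both d120 libraries. The call was lost without birth replicate 1 (adjusted p = 0.053), without birth replicate 2 (adjusted p = 0.124) and without d120 replicate 2 (adjusted p = 0.272), within a range from 0.000596 to 0.272 over its 10 alternatives. Since the deposited table gives 1 count per gene and the position of the disruption is not given in the sources used here, the CFTR level does not check the genotype label.

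Transport and barrier genes of epithelium were mixed. Of 32 ion and bicarbonate transport genes, 3 were higher and 7 lower, with 1 higher without birth replicate 2 or d120 replicate 2. KCNN4, a potassium channel of red cells and secretory epithelium, fell from 4.45 and 5.02 CPM to 0.415 and 0.333 CPM. CA2, a carbonic anhydrase that both red cells and ducts make, fell from 435 and 377 CPM to 40.9 and 65.4 CPM (7.64-fold, adjusted p = 7.79e-05). SLC26A9, a chloride channel, had 45 and 43 counts at d120 and none at birth, at least 30.9-fold lower. How much of the fall of KCNN4 and CA2 came with the red cell list was not tested. Of 25 epithelial protease and junction genes, 8 were higher (median log2 0.98), 5 without birth replicate 1, 4 without birth replicate 2 and 2 without d120 replicate 2. SPINT2, an inhibitor of membrane serine proteases, rose from 29 and 23.7 CPM to 75.1 and 83.2 CPM. Of 10 gallbladder epithelium genes, 1 was higher and 1 lower. The lower member, the trefoil peptide TFF1, was left with 1 count in the birth pair, from 0.322 and 0.822 CPM.

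More than 1 in 2 of the connective tissue genes were higher at birth, and their summed level was highest in birth replicate 2. Of 42 matrix genes, 27 were higher, with a median log2 of 1.64, but 2 in the fit of the 4 libraries alone. Of 24 stellate cell and fibroblast genes, 15 were higher (median log2 1.68). Both counts leaned on single libraries. Matrix genes called higher numbered 12 without birth replicate 2, 14 without d120 replicate 1 and 8 without d120 replicate 2, and fibroblast genes 3, 7 and 7, with 1 fibroblast gene called lower without birth replicate 2. The summed matrix level was 3657 and 3216 CPM at d120 and 6433 and 9938 CPM at birth, while hepatocyte markers stood at 144210 and 37446 CPM in the same birth libraries; the part of that hepatocyte marker level in the matrix result was not tested.

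Several matrix genes passed whichever library was left out. Of these, COL6A3, ELN, COL6A1 and MGP did not pass in the fit of the 4 libraries alone. COL6A3, a chain of collagen VI, went from 25.1 and 23.7 CPM to 70.9 and 183 CPM (5.2-fold higher, log2 fold change 2.38 ± 0.36, adjusted p = 0.000197). ELN, elastin, went from 34.6 and 43 CPM to 155 and 372 CPM (6.79-fold higher, log2 fold change 2.76 ± 0.43, adjusted p = 0.000264). TIMP1, an inhibitor of matrix metalloproteases, went from 10.3 and 7.79 CPM to 35.4 and 38.8 CPM. COL6A1 rose 4.44-fold and MGP, the matrix Gla protein that prevents calcification, 6.88-fold. Among fibroblast genes, DPT, dermatopontin, rose 7.6-fold, HAND2, a factor of stellate cells, 3.57-fold and COLEC11, a collectin made by stellate cells, 2.73-fold. COL3A1, a chain of fibrillar collagen, stood at 540 and 365 CPM and at 875 and 1664 CPM (adjusted p = 0.0143), a call lost without birth replicate 2 and without d120 replicate 2 (adjusted p from 0.00117 to 0.239 over its 10 alternatives).

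Vessel genes were in large part higher. Of 29 endothelial genes, 20 were higher (median log2 1.85), with 8 without birth replicate 2, 7 without d120 replicate 1 and 12 without d120 replicate 2. The summed level was 522 and 583 CPM at d120 and 1068 and 2456 CPM at birth. PECAM1, the junction protein of endothelium, stood at 28.6 and 26.5 CPM and at 77 and 199 CPM (5-fold higher, adjusted p = 0.000146). VWF, von Willebrand factor, stood at 18.4 and 17.8 CPM and at 60.2 and 144 CPM (5.66-fold higher, adjusted p = 0.000474). STAB1, a scavenger receptor of liver sinusoids, rose from 29.1 and 49.3 CPM to 126 and 138 CPM, and FLT4, the receptor for VEGF-C, 3.90-fold. The chemokine CCL21, made by lymphatic endothelium, went from 0.66 and 1.68 CPM to 46.7 and 129 CPM (75.5-fold higher, log2 fold change 6.24 ± 1.25, adjusted p = 0.00258).

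Notch signalling directs the formation of ducts and vessels. Of its 19 tested genes, 9 were higher (median log2 1.5), with 3 without birth replicate 2 and 5 without either d120 library. No member was called in the fit of the 4 libraries alone. HEY1, a target of the pathway, rose from 3.76 and 2.3 CPM to 13.2 and 50.8 CPM (10.5-fold, adjusted p = 9.09e-05). JAG1, the ligand mutated in human Alagille syndrome, rose from 14.8 and 11.2 CPM to 26.6 and 49.1 CPM. NOTCH1, a receptor, stood at 16.2 and 13.8 CPM and at 33.7 and 66.1 CPM (adjusted p = 0.00334), a call lost without birth replicate 2 (adjusted p from 9.02e-05 to 0.0965 over its 10 alternatives).

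**Figure D4:**
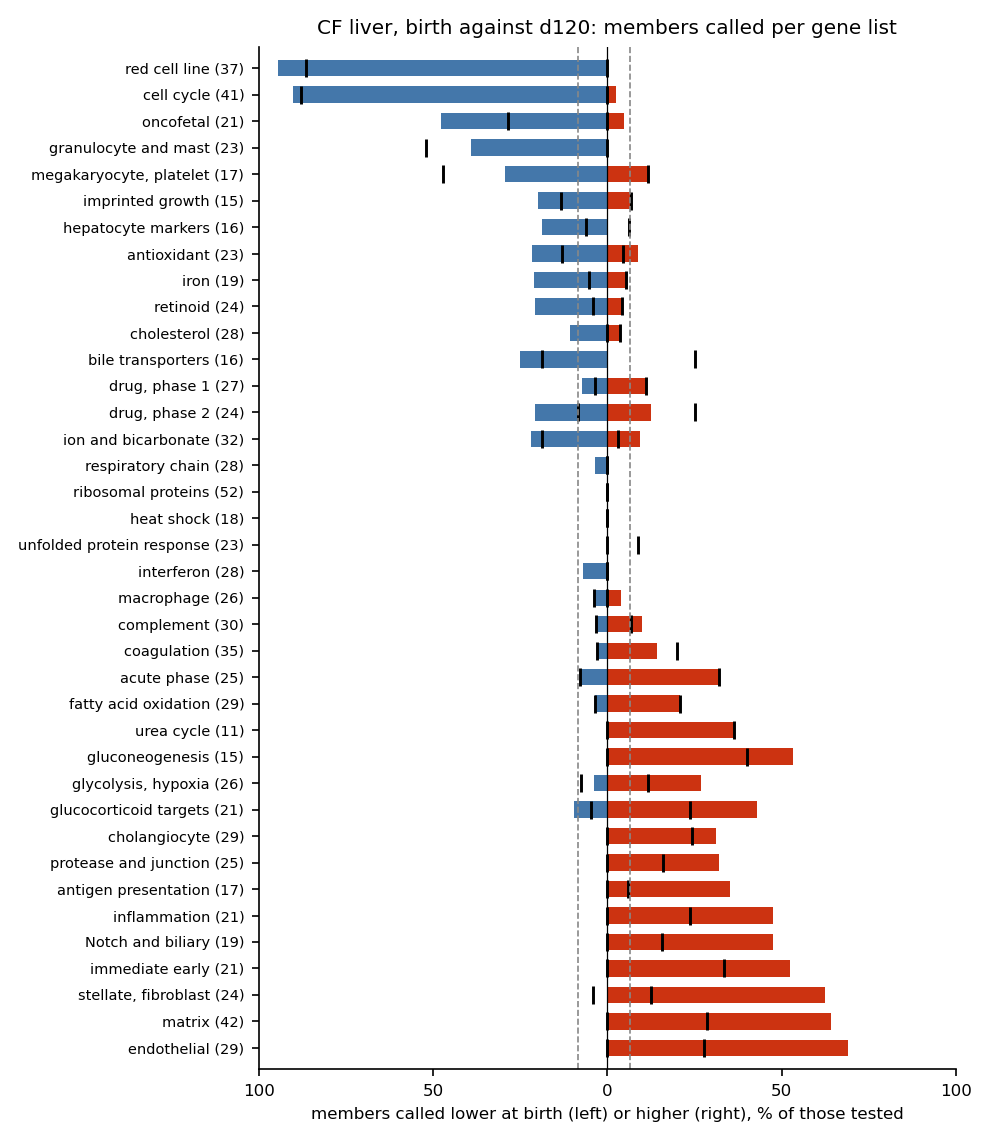
Share of tested members (%, number tested in brackets) called higher (red, to the right) or lower (blue, to the left) at birth in 38 gene lists, with black ticks for the share without birth replicate 2 and dashed lines at the share of all genes (6.34% higher, 8.39% lower). Red cell and cell cycle lists keep their share without that library, while the matrix, endothelial and fibroblast lists lose more than 1 in 2 of their calls.

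Early response genes were in part higher. Of 21 immediate early and stress genes, 11 were higher (median log2 2.25), with 7 without birth replicate 2 and 6 without d120 replicate 2. JUNB, a subunit of AP-1, stood at 11.2 and 11.7 CPM at d120 and at 91.3 and 87.8 CPM at birth (7.81-fold higher, log2 fold change 2.97 ± 0.37, adjusted p = 2.71e-05). IER2 rose 5.11-fold and KLF2, a flow-responsive factor of endothelium, 7.88-fold. NR4A1, a nuclear receptor of the early response, stood at 11.4 and 14.8 CPM and at 30 and 129 CPM (adjusted p = 0.00232), a call lost without birth replicate 2 (adjusted p from 6.11e-06 to 0.128 over its 10 alternatives). Of 21 glucocorticoid targets, 9 were higher and 2 lower (median log2 1.30), with 5 higher without birth replicate 2. TSC22D3, also called GILZ, rose from 27.5 and 35.4 CPM to 69.9 and 208 CPM, and ERRFI1, a brake on the EGF receptor, from 93.2 and 85.8 CPM to 273 and 251 CPM. Of 19 clock genes, 5 were higher and 1 lower, with 1 higher without birth replicate 2 or d120 replicate 2 and 2 without d120 replicate 1. NFIL3, a repressor in the clock, rose 3.95-fold.

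Some inflammatory genes were higher. Of 21 genes of cytokine and NF-kB signalling, 10 were higher (median log2 1.27), with 5 without birth replicate 2, 4 without d120 replicate 1 and 5 without d120 replicate 2. BCL3, a nuclear partner of NF-kB, rose from 5.94 and 6.22 CPM to 27 and 30.1 CPM (4.70-fold, adjusted p = 0.000402). CCL2, the chemokine that draws monocytes, rose from 4.82 and 5.91 CPM to 27.4 and 72.4 CPM, and NFKB2 3.10-fold. Of 17 antigen presentation genes, 6 were higher (median log2 1.22), but only 1 when birth replicate 2 or either d120 library was left out. No antigen presentation gene was called in the fit of the 4 libraries alone. TAP1, the peptide pump, rose from 14.4 and 13.9 CPM to 30.3 and 48 CPM. B2M stood at 363 and 320 CPM and at 427 and 1453 CPM (adjusted p = 0.0146), and lost its call in the same 3 fits (adjusted p from 7.22e-05 to 0.643 over its 10 alternatives). Of 28 interferon response genes, 2 were lower, a share close to that of all genes. The lower count was 1 without either d120 library and both calls were lost without birth replicate 2 and with library totals, where 3 genes were higher, as 3 were with limma-voom and 2 with DESeq2.

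Genes of resident and circulating immune cells depended on single libraries. Of 26 macrophage genes, 1 was higher and 1 lower, and with library totals 8 were higher and 1 lower. CD163, a haemoglobin scavenger receptor of Kupffer cells, stood at 132 and 115 CPM at d120 and at 69.2 and 20.7 CPM at birth (adjusted p = 0.014). Its call was lost without birth replicate 2 and without d120 replicate 1 (adjusted p from 5.96e-05 to 0.228 over its 10 alternatives). The summed level of 27 lymphocyte genes was 49.5 and 50.3 CPM at d120, 47.2 CPM in birth replicate 1 and 292 CPM in birth replicate 2. JCHAIN, the joining chain of secreted antibodies, stood at 2.09 and 2.41 CPM and at 4.4 and 108 CPM (adjusted p = 0.00226), and its call was lost without birth replicate 2 (adjusted p from 8.67e-08 to 0.412 over its 10 alternatives). The higher sum was read in a single newborn.

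Of 21 hepatocyte transcription factors, 1 was higher and 1 lower, with 4 higher for library totals, 6 lower without birth replicate 1, 2 higher and none lower without birth replicate 2 and no call without d120 replicate 2. CEBPB, a factor of the acute phase and of gluconeogenesis, stood at 3.25 and 3.68 CPM and at 12.1 and 13 CPM (adjusted p = 0.00805), and FOXA2, a pioneer factor of liver and duct, at 12.7 and 14.4 CPM and at 6.97 and 2.86 CPM (adjusted p = 0.0131). CEBPB lost its call without either d120 library and FOXA2 without birth replicate 2 or d120 replicate 2 (adjusted p from 0.000281 to 0.0906 and from 0.00096 to 0.167 over 10 alternatives). Of 27 genes of Wnt signalling and zonation, 5 were higher, of 27 apolipoprotein genes 3 were higher and 1 lower, and of 26 genes of peroxisomes and mitochondrial growth 3 were higher and 2 lower. Of 14 thyroid response genes, 2 were higher and 2 lower, and of 20 glucose and inositol transporters 1 was higher and 3 lower. Leaving out 1 library ended the calls of some members of the first 4 of these lists, and the 4 transporter calls, SLC2A3 upward and SLC2A1, SLC2A4 and SLC5A11 downward, were kept in each of those fits. Without birth replicate 1, 5 Wnt and zonation genes and 6 apolipoprotein genes were lower, and without birth replicate 2, 6 apolipoprotein genes were higher. The higher apolipoprotein calls numbered 1 without d120 replicate 1 and were lost without d120 replicate 2. The peroxisome and mitochondrial list had no call without d120 replicate 1. Of 28 respiratory chain genes, SDHC, a subunit of succinate dehydrogenase, was the member that passed, at 113 and 146 CPM and at 89.1 and 46.4 CPM (adjusted p = 0.0179), a call lost without birth replicate 2 and without d120 replicate 2 (adjusted p from 0.000344 to 0.245 over its 10 alternatives).

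Housekeeping and stress lists had no member called over all libraries on the TMM scale. Of 52 ribosomal protein genes (median log2 0.18), none passed with edgeR, at an unadjusted p under 0.05, with DESeq2 or with limma-voom, but 16 were higher with library totals. Of 18 heat shock genes none passed with edgeR, 2 lay on each side at an unadjusted p under 0.05, DESeq2 called 1 higher and 2 lower, limma-voom 1 in each direction, and edgeR 1 lower without birth replicate 1 and 2 higher with library totals. HSPD1, the mitochondrial chaperone, stood at 385 and 332 CPM and at 258 and 168 CPM (adjusted p = 0.0701). Of 23 genes of the unfolded protein response none passed with edgeR, 2 were higher and 3 lower at an unadjusted p under 0.05, and DESeq2 called 2 higher. In edgeR 3 were lower without birth replicate 1, 2 higher without birth replicate 2 and 5 higher with library totals. DDIT3, its death-linked factor, stood at 10.2 and 9.86 CPM and at 20.3 and 17.9 CPM (adjusted p = 0.0679). Markers of neighbouring tissue were read in all 4 libraries. The summed level of the adipose and muscle list was 201 and 320 CPM at d120 and 271 and 166 CPM at birth. Of its 12 tested genes, DES, desmin, also made by stellate cells, was the member that passed, at 7.69 and 9.49 CPM and at 19.2 and 48.5 CPM (adjusted p = 0.00263), and its call was lost without birth replicate 2 (adjusted p from 3.64e-05 to 0.113 over its 10 alternatives). The summed level of the 13 tested of 17 listed pancreas and gut genes was 38.3 and 44 CPM at d120 and 94.5 and 45.1 CPM at birth. That of the 6 tested of 11 adrenal and kidney genes lay between 4.45 and 7.3 CPM in the 4 libraries. That of the 10 tested of 14 nerve and mesothelium genes lay between 17.4 and 22.9 CPM. No member of these 3 lists passed with edgeR. At an unadjusted p under 0.05, 2 members were higher and 4 lower over the 3 lists, and DESeq2 called 2 higher and 3 lower and limma-voom 2 higher.

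The remaining genes with the largest folds were of several kinds. SLC38A5, a glutamine transporter, went from 22.5 and 22.8 CPM to 0 and 0.116 CPM, and FXYD3, a regulator of the sodium pump, from 19.9 and 23.8 CPM to 0 and 0.349 CPM. SLCO4A1, an organic anion transporter that carries thyroid hormone, rose from 0.506 and 0.304 CPM to 3.47 and 73.7 CPM, and ARRDC2, an arrestin-like gene, from 1.73 and 1.64 CPM to 10.6 and 48.6 CPM. Birth replicate 2 held the higher of the 2 newborn values in both. LGALS2, a galectin, stood at 6.18 and 1.86 CPM and at 56.7 and 57.6 CPM, and DMBT1, a scavenger protein of ducts, at 302 and 210 CPM and at 1231 and 1039 CPM. Both lost their calls without d120 replicate 2 (adjusted p from 1.76e-05 to 0.122 and from 1.76e-05 to 0.0678 over 10 alternatives). MUSTN1, a gene of muscle and bone, stood at 2.41 and 4.86 CPM and at 12 and 129 CPM, and CCL19, a chemokine of lymphoid stroma, at 0.706 and 1.66 CPM and at 7.86 and 39.8 CPM. Both lost their calls without birth replicate 2 and without either d120 library (adjusted p from 0.00163 to 0.431 and from 0.000122 to 0.189). INHBA, a subunit of activin, stood at 4.39 and 1.46 CPM and at 80.5 and 9.21 CPM, and lost its call without birth replicate 1 and without d120 replicate 2 (adjusted p from 1.46e-06 to 0.143). Among genes with no count in either newborn, FHDC1 was at least 227-fold lower, S100G, a calcium-binding protein, at least 82.5-fold, PRIMA1, the membrane anchor of acetylcholinesterase, at least 59.7-fold, SLC30A2, a zinc transporter, at least 54.8-fold and CHRNB4, a nicotinic receptor subunit, at least 45.3-fold. KMT2B stood at 3014 and 5572 CPM and at 411 and 435 CPM (10.2-fold lower, adjusted p = 1.28e-05); its symbol belongs to a histone methyltransferase gene, and whether these reads come from that gene was not tested.

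The WT course from d120 to term shares no libraries with the CF course. It gave 2788 higher (16.9%) and 3059 lower genes (18.5%). Of the 1385 genes lower in CF, 880 (63.5%) were also lower in WT, which is 28.8% of the WT list. Of the 1046 genes higher in CF, 273 (26.1%) were also higher in WT, or 9.79% of that list, and 156 (14.9%) were lower in WT. The change itself differed between the genotypes in 3476 genes (21.1%), with 1777 more positive in CF (10.8%) and 1699 more negative (10.3%). With library totals the split was 2942 and 700. The count was 2016 without d120 replicate 1, 2295 without WT d120 replicate 2 and 2209 without WT term replicate 1, and the WT course gave 3847 genes without that last library. The loss of red cell and cell cycle genes was common to both: 35 of 37 and 37 of 41 members were lower in WT as well. Of the 37 red cell genes, 19 had a more positive and 1 a more negative change in CF. TMCC2, for example, was at a mean of 0.0395 CPM in WT term liver, against 6.10 and 0.316 CPM in CF newborns (log2 difference 7.55, adjusted p = 0.000539), and its log2 difference was 4.16 without birth replicate 1.

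**Figure D5:**
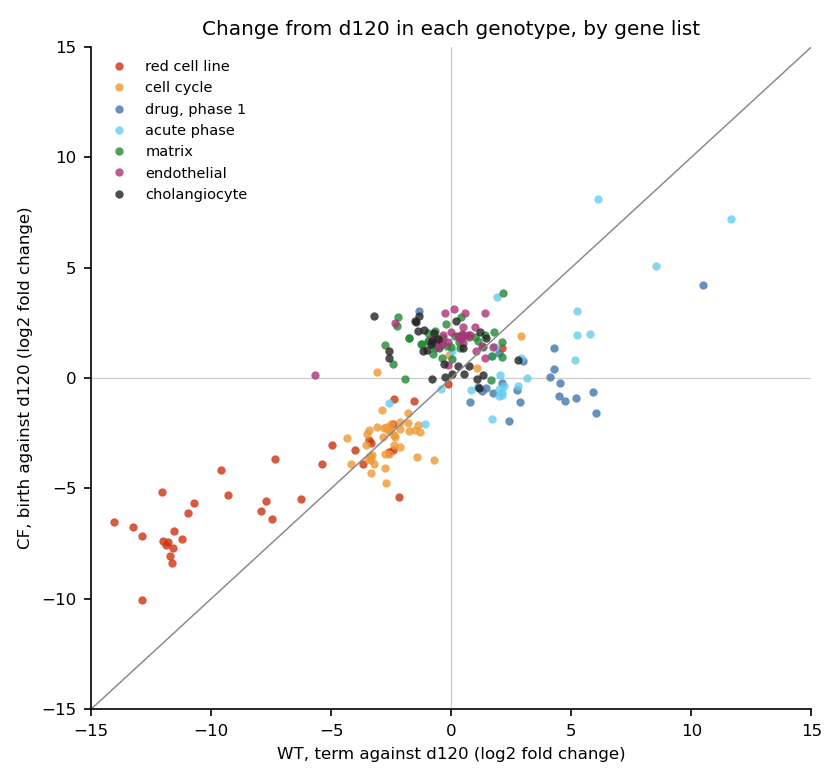
Log2 fold change from d120 in WT (term, horizontal axis) and CF (birth, vertical axis) for 222 members of 7 gene lists, with the line of equal change in grey and 8 members with a group at 0 in both libraries left out. Red cell genes mostly fall in both genotypes, phase 1 drug enzymes lie mostly below the line (25 of 27 called higher in WT, 3 in CF), and matrix genes lie mostly above it.

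Many hepatocyte functions were higher at term in WT and had a more negative change in CF. Of 27 phase 1 drug enzymes, 25 were higher in WT (median log2 4.26) and 23 differed between the genotypes, all more negative in CF. CYP2E1 reached a mean of 4085 CPM at WT term from 2.88 CPM, against 208 and 34.2 CPM in CF newborns (log2 difference -6.28, adjusted p = 0.00037). CYP2A6 stood at 0 and 0.166 CPM in CF newborns and at a mean of 166 CPM at WT term. ACSM1, an acyl-CoA synthetase, stood at 1.33 and 2.73 CPM and at 937 CPM, HSD17B13, a lipid droplet protein of hepatocytes, at 2.94 and 10.2 CPM and at 200 CPM, and FMO1, a flavin monooxygenase, at 1.16 and 0.748 CPM and at 204 CPM. CYP1A1, the cytochrome induced by the aryl hydrocarbon receptor, was listed at 0 in both CF newborns and at a mean of 76.5 CPM at WT term. These 5 differed between the genotypes (adjusted p = 0.00254, 0.00176, 0.00101, 0.0117 and 0.000665, in the order named). The difference was lost without d120 replicate 1 for ACSM1 (adjusted p = 1) and FMO1 (adjusted p = 0.246), and without d120 replicate 2 for CYP2A6 (adjusted p = 1), and the lowest values over the 14 alternatives of each were 0.000114, 0.000129 and 0.000218. GHR rose in WT from 39.9 CPM to 702 CPM (log2 difference -4.29, adjusted p = 2.87e-05). Of 29 fatty acid oxidation genes, 23 were higher in WT and 19 had a more negative change in CF. ACSL1 rose in both and less in CF (log2 difference -2.02, adjusted p = 0.000566). The same held for HP, which reached a mean of 29830 CPM at WT term (log2 difference -4.48, adjusted p = 0.000974), for SAA (log2 difference -3.46, adjusted p = 0.00785) and for CRP (log2 difference -3.75, adjusted p = 6.87e-05). GCLM, unlike in CF, had a WT log2 fold change of 0.06 (log2 difference -1.99, adjusted p = 0.000281).

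Duct, matrix and vessel lists included genes with a more positive change in CF. Over all genes, 16.9% were higher and 18.5% lower in WT, and 10.8% had a more positive change in CF. Of 29 cholangiocyte genes, 3 were higher and 7 lower in WT, and 11 had a more positive change in CF. SCTR fell in WT from a mean of 9.04 CPM to 3.12 CPM (log2 difference 4.11, adjusted p = 5.73e-05) and KRT7 from 6.95 to 2.73 CPM (log2 difference 4.14, adjusted p = 0.000376). CFTR stood at 1.94 CPM in WT at d120 and at 1.34 CPM at term (log2 difference 2.34 ± 0.75, adjusted p = 0.0342, from 0.0124 to 0.254 over 14 alternatives). The CFTR difference was lost without birth replicate 1, birth replicate 2, d120 replicate 2, WT d120 replicate 2 or WT term replicate 2. Of 42 matrix genes, 3 were higher and 9 lower in WT, a lower share near the 18.5% of all genes. Their summed WT level was 2215 and 2948 CPM at d120 and 4238 and 4064 CPM at term. A more positive change in CF was found for 22 of the 42, among them COL6A3 (log2 difference 4.63, adjusted p = 2.24e-05) and ELN (log2 difference 4.96, adjusted p = 4.66e-05), which both fell in WT. Of 29 endothelial genes, 2 were higher and 2 lower in WT, with a summed level of 709 and 690 CPM at d120 and 684 and 757 CPM at term. A more positive change in CF was found for 11 of the 29, among them VWF (log2 difference 4.85, adjusted p = 4.58e-05), which fell in WT. CD34 fell in WT from 108 CPM to 2.13 CPM and DLK1 from 529 CPM to 16 CPM, while neither passed in CF (log2 differences 5.82 and 5.66). NR4A1 fell in WT from 43.9 CPM to 1.77 CPM (log2 difference 7.23, adjusted p = 1.69e-05). SLC2A3 fell in WT from 10 to 2.95 CPM and rose in CF (log2 difference 6.11, adjusted p = 0.000315), and SLC2A1 fell in both, less in CF. JUNB stood at 17.8 CPM in WT at d120 and at 21.2 CPM at term (log2 difference 2.72, adjusted p = 0.00104). WT term liver comes from a separate library series, birth replicate 2 stands apart, and the end points are labelled birth in CF and term in WT. Genotype, library series, end point and that library therefore cannot be told apart in these differences.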

How the data were processed

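Total RNA was extracted by the submitters with TRIzol and beads from frozen liver, per the labels' protocols. The deposited liver table holds estimated counts per gene, made by the authors with STAR 2.7.9a and Salmon (1.10.1 and 1.9.0), with edgeR, limma and DESeq2 also listed, per the submitters' processing notes. No source used here gives the genome build or whether counting used strand. The title of the table mentions TPM, but its column totals differ and 87.5% of values between 0.5 and 1.5 lay within 0.1 of 1. Of all values above 0, however, 0.277% lay within 0.001 of a whole number. The values were treated as estimated counts and rounded, and whether the authors had scaled them was not tested. A row that names no gene (0.613% to 0.729% of the counts of the 4 libraries) was removed, which left 22980 genes. Of 6080 genes named by locus only, 156 were matched to a symbol in the RefSeq gene table.

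Genes passing edgeR's expression filter (16507) were fitted with edgeR 4.0.16 (R 4.3.3): TMM scaling, 1 mean per genotype and stage over the 24 liver libraries, quasi-likelihood tests of birth against d120 in CF, term against d120 in WT and the difference of these changes, and Benjamini-Hochberg adjustment over all tested genes. Levels are CPM of TMM-scaled totals. Between 29705597 and 50690171 counts per CF library limit precision by counting error less than the 2 animals per stage do. An exact permutation test of 2 against 2 cannot go below 0.333, so none was used. Alternatives were DESeq2 1.42.0, DESeq2 size factors, limma-voom (limma 3.58.1), no filter, the libraries of the comparison alone, each library left out and, added after seeing the data, library totals without TMM. A fold against a stage at 0 uses a floor of 3 counts over the pair. On simulated counts for the CF change over 16012 genes, edgeR called 7 of 50 genes changed 2-fold, 44 of 50 changed 4-fold and all 50 changed 8-fold, with 4 unchanged genes called. The simulation gave all genes and libraries the same spread. In the data 18.5% of genes lay over 2-fold apart between the birth libraries and 1.06% between the d120 libraries, so these rates need not hold for the data.

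The samples and the 56 gene lists were chosen with earlier results of these data known. Named genes are drawn from CFTR, the 15 genes per direction with the largest fold (mean of at least 10 CPM, no overlap), the 10 with the largest difference in level, for each list the 4 or fewer members of lowest p, up to 8 per direction at 0 in a stage and, for the difference, the 5 per direction with the largest fold. Some genes that these rules pick are not reported here. Replicate numbers follow the order of the samples and pair nothing. No sequence is printed, since none was used here.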

Additional observations from a re-analysis of the deposited data

Results flagged for a closer look

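The change from d120 differed between CF and WT liver, by a test of the difference itself in edgeR, in 3476 genes, and in each of the following named genes. The WT term libraries belong to a separate library series, and the end points are labelled birth in CF and term in WT. Genotype, series and end point therefore cannot be told apart, and no explanation was tested. All values are adjusted p-values of that difference.

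More positive in CF, the red cell gene TMCC2 (0.000539) fell in both genotypes, as did SLC2A1 (0.000114) and KMT2B (1.17e-06). Among duct genes, SCTR (5.73e-05) and KRT7 (0.000376) rose in CF and fell in WT, and CFTR had 0.0342. Among matrix and vessel genes, COL6A3 (2.24e-05), ELN (4.66e-05), VWF (4.58e-05), CCL21 (0.005) and CD34 (1.96e-06) were more positive in CF, as were DLK1 (6.19e-06), SLC2A3 (0.000315), JUNB (0.00104) and NR4A1 (1.69e-05).

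More negative in CF were the acute phase genes HP (0.000974), SAA (0.00785) and CRP (6.87e-05), and the hepatocyte genes ACSL1 (0.000566), CYP2E1 (0.00037), GCLM (0.000281), GHR (2.87e-05), HSD17B13 (0.00101), CYP1A1 (0.000665), ACSM1 (0.00176), FMO1 (0.0117) and CYP2A6 (0.00254). With DESeq2's Wald test the adjusted p was 0.0629 for ACSM1 and 0.146 for CYP2A6.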

How the results depend on the processing

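No paired analysis was possible because the replicate numbers follow sample order and the labels pair no animals. The 2431 genes called in CF became 345 (54 higher, 291 lower) when only the 4 libraries were fitted, and 1213 to 3193 when 1 library was left out, against 3324 with DESeq2 and 2969 with limma-voom. The WT count of 5847 ranged from 3847 to 4417 and the difference count of 3476 from 2016 to 4025 without 1 library. The causes were not tested. Of 161 named genes called in CF, 160 kept their call with DESeq2's Wald test, 161 with DESeq2 size factors, 158 with library totals (a scaling chosen after seeing the data), 152 with limma-voom, 160 without the filter, 51 with the 4 libraries alone, 156 without birth replicate 1, 139 without birth replicate 2, 144 without d120 replicate 1 and 138 without d120 replicate 2. In all settings but the fit of 4 libraries, 120 kept it. Among uncalled genes the log2 fold change turned its sign for CD34 (-0.20 without birth replicate 2, 0.38 at most without 1 library), GHR (0.33 with library totals) and CYP2A6 (-4.82 without birth replicate 2, -0.83 without d120 replicate 1 and 5.05 without d120 replicate 2). On counts simulated with the same spread in all libraries, changes of 2-fold were seldom called.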
